A study of Mus musculus with 16 samples.

Results

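Quadriceps of high-fat-fed and control-fed mice were compared 3 h after 1 exhausting run on a treadmill. The comparison uses 8 of the 16 RNA-seq libraries of the series and 11256 genes, those whose mean over the 16 libraries reached 0.5 FPKM. All mice were male, wild-type C57BL/6NTac animals, 16 weeks of age, fed either a high-fat diet (HFD, 60% of kcal from fat) or a control diet (CON, 10% of kcal from fat) for 10 weeks. The 4 HFD-post and the 4 CON-post libraries come from mice that had been acclimatized to the treadmill, fasted, run to exhaustion and kept without food until the muscle was taken, so running time was not set. By the study's account the diets differed in that time and not in the work done. The 4 HFD-pre and 4 CON-pre libraries come from other mice with the same acclimatization and fast but no run, and serve here only as the diet difference at rest. A diet is a whole-animal treatment and quadriceps a mixture of fibres and other cells, so no value below belongs to 1 cell type.

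Muscle burns fatty acids by coupling them to coenzyme A and passing them across the inner mitochondrial membrane as carnitine esters. Dehydrogenases, hydratases and thiolases then shorten the chain, and auxiliary isomerases and reductases rearrange the double bonds of unsaturated chains. Many of these enzymes are targets of the PPAR nuclear receptors, which fatty acids activate. A bout of running separately switches on short-lived genes in muscle, among them the AP-1, Egr and NR4A transcription factors, heat shock chaperones and the coactivator gene Ppargc1a, many of which are still high hours later.

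FPKM (fragments per kilobase of transcript, scaled by the mapped fragments of the library) is a level per length, and summed per library to 298638 to 329282 in CON-post, and to 283575 to 314764 in HFD-post. Pairs of the 8 libraries correlated at 0.973 to 0.984 on the log2 scale, across genes. The 10 myofibre markers (Acta1, Ckm, Ttn and others), which check the tissue, were detected in all 8 libraries and summed to 43180 to 51540 FPKM in CON-post and 39810 to 46460 in HFD-post. Of the marker lists of other cells, that of neutrophils summed to 176.5 FPKM in HFD-post replicate 2 against 3.27 to 9.63 in the other HFD-post libraries. Skin keratinocyte markers reached 40.9 FPKM in HFD-post replicate 3 and 15.1 in CON-post replicate 1, and were at most 2.50 in the remaining 6 libraries. The part of these cells in the results was not tested.

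Of the 11256 genes, 17 were called at a Benjamini-Hochberg adjusted p under 0.05 in limma (0.151%). HFD-post was higher in 14 of them (0.124% of all genes) and lower in 3 (0.0267%). The 14 were Lep, BC048679, Npr3, Chrna2, Ech1, Ephx2, Decr1, Retsat, Acadl, Slc25a20, Cpt2, Dbi, Acadm and Vwa8, and the 3 were Cfd, Pak1 and Musk. In each of the 17, the lowest library of the higher diet lay above the highest library of the lower diet, which was also so for 356 of all genes (3.16%; 212 higher, 1.88%, and 144 lower, 1.28%). At an unadjusted p under 0.05 there were 708 genes (6.29%), 351 higher (3.12%) and 357 lower (3.17%), so the called genes leaned towards HFD-post while the wider group was split almost evenly. The median log2 difference of all genes was 0.00. With only the 8 post-exercise libraries in the fit, BC048679 and Npr3 alone were called. Leaving out 1 library gave 11 calls without CON-post replicate 1, 5 without CON-post replicate 2, and 8 without CON-post replicate 3. It gave 11 when HFD-post replicate 1 was left out and 10 when HFD-post replicate 4 was.

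**Figure D1:**
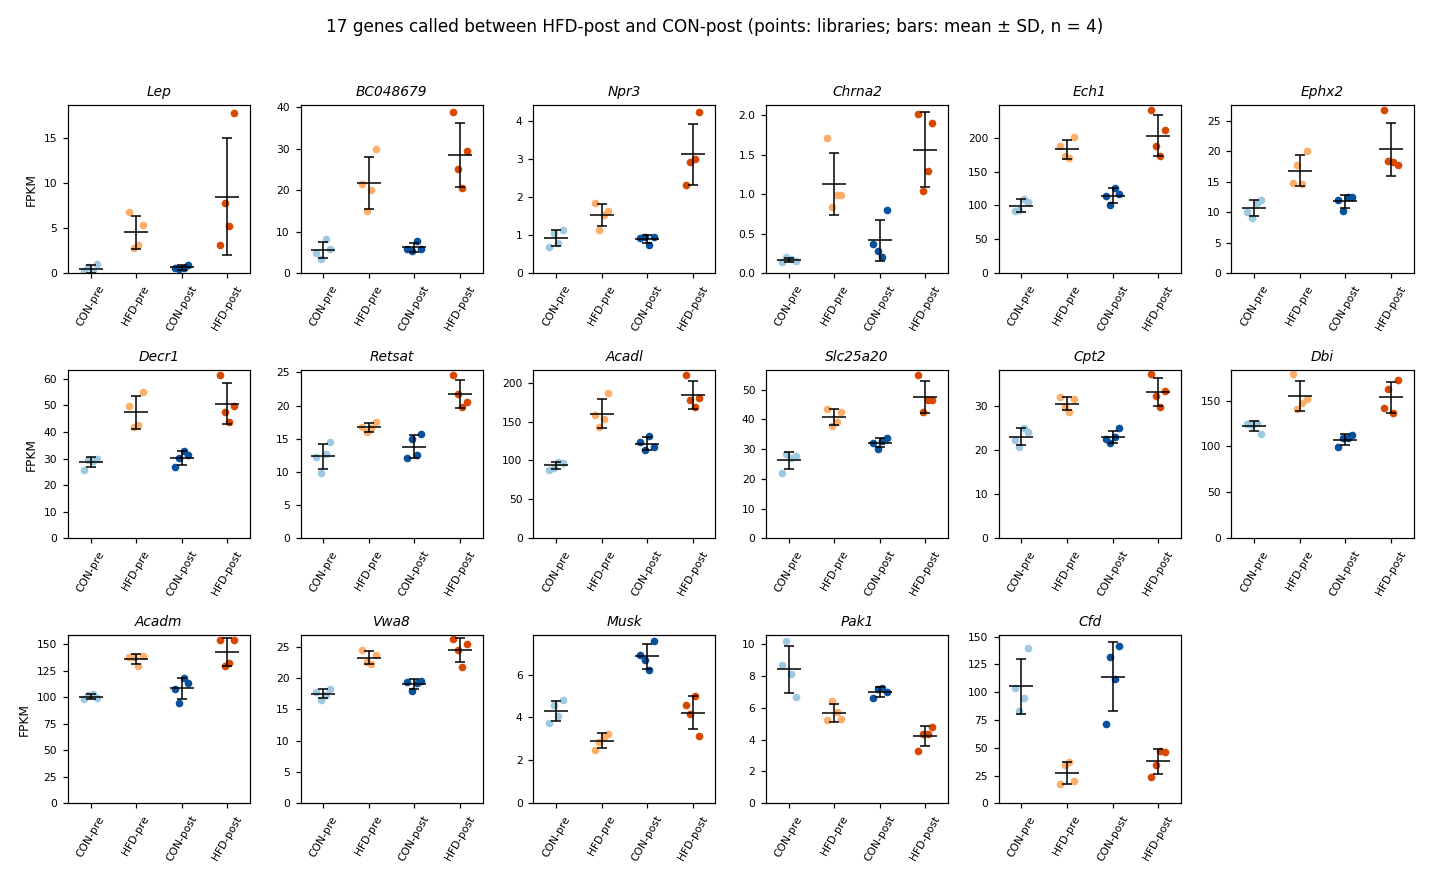
FPKM of the 17 genes called between HFD-post and CON-post, in order of log2 difference, with 1 point for each library of the 4 groups and bars for the mean ± SD (n = 4). The dark orange HFD-post points lie apart from the dark blue CON-post points in every panel, above in 14 and below in Musk, Pak1 and Cfd, and the paler resting groups stand in the same order.

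The list with the most called genes was the oxidation of fatty acids inside mitochondria. All 21 tested genes of that list were higher in HFD-post, against 5764 of the 11256 genes, and their median log2 difference was 0.36. Of the 21, 4 were called, all higher (0.124% of all genes), 15 were higher without overlap (1.88% of all genes), and the differences ranged from 0.00 to 0.82, that of Ech1. The genes of the list were chosen with earlier results of these libraries known, so their shared direction is a description.

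Ech1 (chromosome 7, 28825338 to 28832239 in GRCm38), the dienoyl-CoA isomerase of unsaturated chains, stood at 115, 101, 126 and 117 FPKM in CON-post replicates 1 to 4 and at 241, 188, 173 and 211 FPKM in the same order in HFD-post. Every HFD-post library lay well above every CON-post library. The log2 difference was 0.82 (standard error 0.10, limma adjusted p = 0.00172). Decr1 (chromosome 4, 15917240 to 15945377), the mitochondrial dienoyl-CoA reductase that acts on the same chains, stood at 26.8, 30.1, 32.7 and 31.3 FPKM in CON-post and at 61.5, 47.6, 43.8 and 49.6 FPKM in HFD-post. Its log2 difference was 0.73 (standard error 0.11, adjusted p = 0.00893). Both had their highest level of the 8 libraries in HFD-post replicate 1.

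Acadl (chromosome 1, 66830839 to 66863309) encodes the long-chain acyl-CoA dehydrogenase, which takes the first oxidation step. Its levels were 124, 113, 132 and 118 FPKM in CON-post and 210, 178, 169 and 181 FPKM in HFD-post, a log2 difference of 0.60 (standard error 0.09, adjusted p = 0.00883). Acadm (chromosome 3, 153922353 to 153944643), the medium-chain enzyme of the same step, measured 108, 94.5, 118 and 113 FPKM in CON-post and 154, 130, 133 and 154 FPKM in HFD-post. With a log2 difference of 0.39 (standard error 0.07) and an adjusted p of 0.0497 it was at the edge of the threshold, and it was called in 4 of 30 alternatives, while Ech1, Acadl and Decr1 were called in 29, all but the fit of the 8 libraries alone.

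Just past the threshold lay further enzymes of this list, named here after their values were seen. Eci2, another isomerase of unsaturated chains, was 0.31 higher on the log2 scale (adjusted p = 0.0626). Acaa2, the last thiolase of the cycle, measured 65.2 ± 7.44 FPKM in CON-post and 101 ± 14.9 in HFD-post (SD, n = 4; log2 difference 0.62, adjusted p = 0.0678). Hadha, a subunit of the trifunctional protein, differed by 0.42 (adjusted p = 0.0678). Etfdh, which hands the electrons on to the respiratory chain, differed by 0.47 (adjusted p = 0.0868). None of these 4 was called, and none overlapped between the diets.

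HFD-post replicate 1 held the highest level among the HFD-post libraries for 17 of the 21 genes (81.0%), although it was the highest for 14.7% of all genes tested. The same library was the highest for 14 of 15 slow-fibre sarcomere genes (93.3%) and the lowest for 15 of 18 adipocyte markers (83.3%, against 44.1% of all genes), and the part of fibre type or adipocyte RNA in its oxidation values was not tested. Without that library, 20 of the 21 were still higher, the median was 0.30, and 3 remained called. Over all alternatives the number of higher members was between 19 and 21 and the median between 0.30 and 0.41.

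The transport of fatty acids into the mitochondrion pointed the same way. Of 22 tested genes for uptake, activation and the carnitine shuttle, 19 were higher, with a median of 0.22, and 2 were called, both higher in HFD-post (0.124% of all genes). Cpt2 (chromosome 4, 107903982 to 107923589), the inner-membrane enzyme that releases acyl-CoA from carnitine, stood at 22.6, 21.5, 22.9 and 25.0 FPKM in CON-post and at 37.4, 32.4, 29.7 and 33.4 FPKM in HFD-post (log2 difference 0.52 ± 0.08, SE, adjusted p = 0.0103). Slc25a20 (chromosome 9, 108662136 to 108684642), the carrier that exchanges acylcarnitine for carnitine, stood at 32.2, 30.1, 32.9 and 33.7 FPKM in CON-post and at 55.0, 42.4, 46.6 and 46.4 FPKM in HFD-post (0.55 ± 0.09, SE, adjusted p = 0.0216). The 4 HFD-post values of both genes were above all CON-post values, again with replicate 1 on top. Cpt2 was called in 27 and Slc25a20 in 22 of 30 alternatives. Neither was called without CON-post replicate 2, in a fit of the 2 groups alone (adjusted p = 0.109 for both) or with the adipocyte covariate described below, and 1 of the 2 was called without CON-post replicate 1, CON-post replicate 3, HFD-post replicate 1 or HFD-post replicate 4.

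Upstream of the shuttle, Fabp3 and Cd36 were looked at after their values were seen. Fabp3, the fatty acid binding protein of muscle, measured 75.2, 71.4, 101 and 74.2 FPKM in CON-post and 264, 198, 157 and 125 FPKM in HFD-post. The diets did not overlap, though the HFD-post values were widely spread, and the log2 difference of 1.16 had an adjusted p of 0.140. Cd36, a fatty acid transporter of the cell surface, measured 88.7 ± 6.03 FPKM in CON-post and 122 ± 11.8 in HFD-post (SD, n = 4; adjusted p = 0.218). Acaca, the acetyl-CoA carboxylase that makes malonyl-CoA for fatty acid synthesis, was lower, 0.971 ± 0.0960 FPKM in HFD-post against 1.40 ± 0.233 in CON-post (adjusted p = 0.328), and was the only member of the list without overlap in that direction.

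The lists of peroxisomal and of lipid droplet and lipolysis genes carried no call. Among 16 peroxisomal genes 13 were higher (median 0.16), led by Cat, the catalase gene (45.4 ± 7.21 to 61.9 ± 6.49 FPKM, adjusted p = 0.185), and Pex11a, a peroxisome division factor (6.76 ± 1.01 to 10.7 ± 2.43 FPKM, adjusted p = 0.248). Of 21 lipid droplet and lipolysis genes 14 were higher (median 0.14, and -0.03 with the adipocyte covariate described below). G0s2, the inhibitor of adipose triglyceride lipase, stood at 9.35, 6.01, 7.15 and 8.04 FPKM in CON-post and at 16.4, 10.5, 15.9 and 13.5 FPKM in HFD-post, without overlap (log2 difference 0.84, adjusted p = 0.0665). Plin5, a droplet coat protein of oxidative tissues, measured 10.5 ± 2.18 FPKM in CON-post and 19.8 ± 3.28 in HFD-post (0.89, adjusted p = 0.193).

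Fatty acid synthesis was mixed, with 11 of 19 genes higher, a median of 0.06 and no call. The median was between -0.009 and 0.065 when each post-exercise library was left out in turn, below 0 without CON-post replicate 1 or 2. Its members furthest from 0 were lower in HFD-post. Fasn, fatty acid synthase, stood at 12.1, 4.36, 3.91 and 5.15 FPKM in CON-post and at 2.43, 3.11, 2.06 and 2.78 FPKM in HFD-post, a log2 difference of -1.03 (adjusted p = 0.151), with CON-post replicate 1 far above the rest. Aacs, acetoacetyl-CoA synthetase, which routes ketone bodies into lipid, stood at 3.40, 2.23, 2.67 and 2.86 FPKM in CON-post and at 1.13, 1.96, 1.28 and 1.55 FPKM in HFD-post (-0.74, adjusted p = 0.0629). Neither overlapped between the diets.

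No gene of the TCA cycle or the respiratory complexes, the steps after the oxidation cycle, was called. Of 23 TCA cycle genes 19 were higher, with a median log2 difference of 0.04, and 4 did not overlap, 3 of them higher and 1 lower (3.16% of all genes in either direction). The median was 0.03 over 37 genes of respiratory complex I, 24 of them higher, and 0.02 over 45 genes of complexes II to V, 32 of them higher. Over the alternatives these medians ranged from 0.02 to 0.07, from -0.01 to 0.06 and from -0.02 to 0.06, and without HFD-post replicate 1 only 19 of the 45 genes were higher. All 3 lists shared the pattern within HFD-post, in that 15 of 23 (65.2%), 20 of 37 (54.1%) and 32 of 45 genes (71.1%) were highest in replicate 1. The medians of the proteasome (38 genes) and the cytosolic ribosome (75 genes) were 0.02 each, also without a call, and ranged from -0.04 to 0.07 over the alternatives. The PPAR, RXR and LXR receptors and their cofactors themselves were not called in any of 14 cases (median -0.03, from -0.08 to 0.01 over the alternatives).

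**Figure D2:**
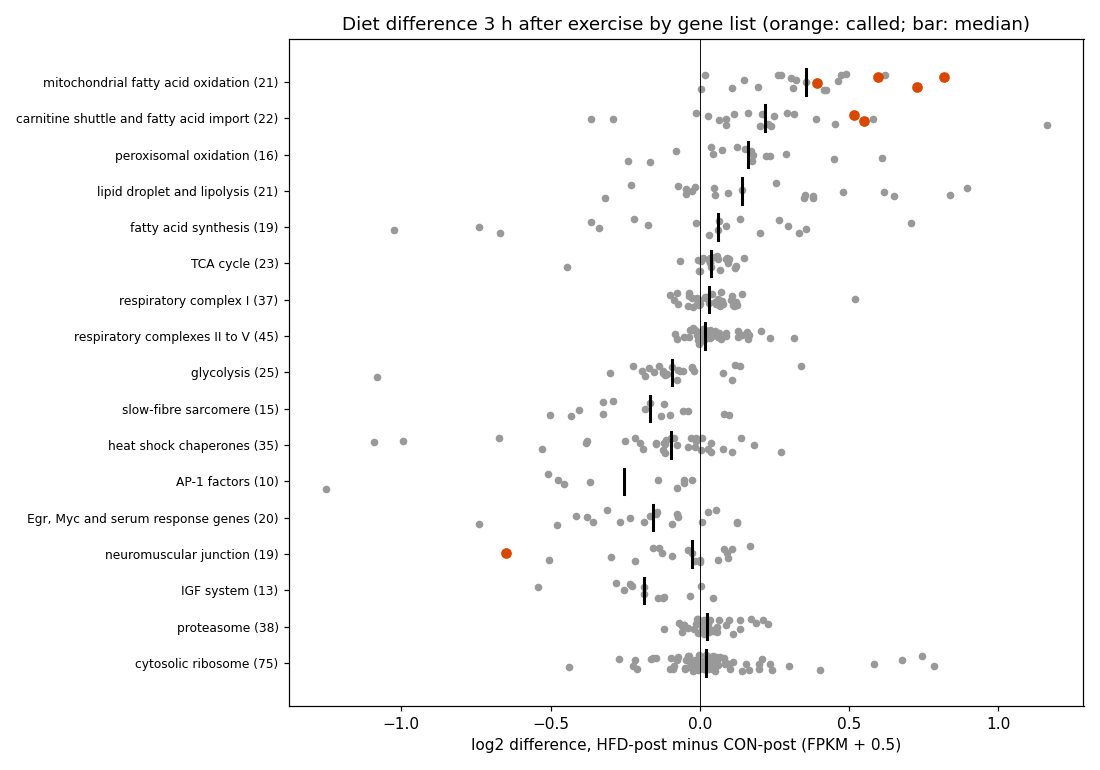
Log2 difference between HFD-post and CON-post, on log2(FPKM + 0.5), for each tested gene of 17 lists (number tested in brackets), with called genes in orange and the list median as a bar. The whole fatty acid oxidation list lies at or above 0, the respiratory complexes and the proteasome cluster around 0, and all 10 AP-1 factors lie below 0 without a call.

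Further called genes take part in lipid chemistry outside that cycle. Dbi (chromosome 1, 120113280 to 120121096), the acyl-CoA-binding protein that carries acyl-CoA in the cytosol, stood at 99.3, 109, 109 and 113 FPKM in CON-post and at 142, 163, 137 and 172 FPKM in HFD-post (log2 difference 0.51 ± 0.08, SE, adjusted p = 0.0236). Retsat (chromosome 6, 72598602 to 72607488), retinol saturase, stood at 12.1, 14.98, 12.6 and 15.6 FPKM in CON-post and at 24.6, 21.7, 19.8 and 20.6 FPKM in HFD-post (0.63 ± 0.11, SE, adjusted p = 0.0244). Ephx2 (chromosome 14, 66084372 to 66124522), the soluble epoxide hydrolase, which opens fatty acid epoxides, stood at 12.04, 10.3, 12.5 and 12.5 FPKM in CON-post and at 26.8, 18.5, 18.2 and 17.8 FPKM in HFD-post. Its 3 lower HFD-post libraries were close together and still above CON-post, and the log2 difference was 0.74 (standard error 0.13, adjusted p = 0.0350). The calls of Dbi and Retsat were each kept in 22 of 30 alternatives and that of Ephx2 in 13.

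Vwa8 (chromosome 14, 78849058 to 79202310), which encodes a mitochondrial ATPase, fell outside the rule for named genes and is given to complete the 17. It stood at 19.4, 18, 19.3 and 19.6 FPKM in CON-post and at 26.2, 24.5, 21.8 and 25.4 FPKM in HFD-post, a log2 difference of 0.35 (standard error 0.07, adjusted p = 0.0497), and was called in 5 of 30 alternatives.

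Npr3 and BC048679 had the smallest p of all genes and were called in each of 30 alternatives. Npr3 (chromosome 15, 11839896 to 11907837), the receptor that clears natriuretic peptides, stood at 0.926, 0.959, 0.732 and 0.939 FPKM in CON-post and at 2.32, 2.91, 3.00 and 4.24 FPKM in HFD-post. The lowest HFD-post value was thus far above a tight control group, and the log2 difference was 1.36 (standard error 0.16, adjusted p = 0.000968). BC048679 (chromosome 7, 81494274 to 81498330), a protein-coding gene without a better name, stood at 5.86, 5.42, 7.71 and 5.94 FPKM in CON-post and at 38.8, 25.1, 20.6 and 29.6 FPKM in HFD-post (2.08 ± 0.24, SE, adjusted p = 0.000968). Chrna2 (chromosome 14, 66133236 to 66152948), a neuronal-type alpha subunit of the nicotinic acetylcholine receptor, was low throughout, at 0.369, 0.285, 0.209 and 0.797 FPKM in CON-post and 2.02, 1.04, 1.29 and 1.91 FPKM in HFD-post (1.18 ± 0.20, SE, adjusted p = 0.0253). Chrna2 averaged under 0.5 FPKM in both control-fed groups and passed the filter through the high-fat groups, so its call is not independent of the filter. It was called in 20 of 29 alternatives and was not called without the filter. At such levels the log2 difference understates the ratio, because 0.5 is added to every value. Ephx2, also called higher, lies close to Chrna2 on chromosome 14 (66084372 to 66124522), and whether the 2 calls are related was not tested.

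The largest rise and the largest fall among the called genes were adipocyte products. Lep (chromosome 6, 29060221 to 29073876), which encodes leptin, stood at 0.568, 0.433, 0.569 and 0.957 FPKM in CON-post and at 3.14, 7.77, 5.18 and 17.8 FPKM in HFD-post (log2 difference 2.74 ± 0.41, SE, adjusted p = 0.00893). Cfd (chromosome 10, 79890853 to 79892655), which encodes adipsin, a complement protease, stood at 71.5, 132, 112 and 141 FPKM in CON-post and at 23.4, 34.96, 47.0 and 46.5 FPKM in HFD-post (-1.58 ± 0.27, SE, adjusted p = 0.0253). The pair therefore moved in opposite directions. Lep was called in 28 of 30 alternatives, all but the fit of the 2 groups alone and that without CON-post replicate 2, and its log2 difference was 1.81 with the adipocyte covariate described next. Cfd was called in 22 of 30, and was lost without the filter, with a robust variance model, in the fit of the 2 groups alone and without CON-post replicate 2, 3 or 4 or HFD-post replicate 1 or 2.

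The full list of 18 adipocyte markers was detected in every library and summed to 824 to 1116 FPKM in CON-post and 828 to 1450 in HFD-post. Cd36, given above for fatty acid uptake, is among the 18, so the sum and the covariate below are not measures of adipocytes alone. Of the 18, 13 were higher in HFD-post (median 0.32, and 0.15 without HFD-post replicate 4). Sncg and Nnat, looked at after their values were seen, were higher without overlap but not called (adjusted p = 0.132 and 0.170), and Adipoq, the adiponectin gene, overlapped at 10.6, 17.7, 22.1 and 22.7 FPKM in CON-post and 13.2, 34.8, 19.5 and 45.4 FPKM in HFD-post (log2 difference 0.52, adjusted p = 0.910, from -0.21 to 0.82 over the alternatives). Within HFD-post, replicate 4 was the highest library for 13 of the 18 (72.2%, against 29.9% of all genes) and replicate 1 the lowest for 15 (83.3%, against 44.1%). With the mean log2 level of these markers as a covariate, Lep (adjusted p = 0.0143), Cfd (0.0278), Npr3 (0.0143), BC048679 (0.0143), Ech1 (0.0212), Acadl (0.0278), Decr1 (0.0454) and Ephx2 (0.0454) were still called and the remaining 9 were not. The differences of those 9 stayed near their size without the covariate, at 0.52 for Cpt2 (adjusted p = 0.0577), 0.60 for Slc25a20 (0.0534), 0.61 for Retsat (0.153), 1.17 for Chrna2 (0.153), -0.74 for Pak1 (0.0820), 0.40 for Acadm (0.204) and 0.32 for Vwa8 (0.273), and were smaller for Dbi, at 0.39 (0.204), and Musk, at -0.51 (0.333). The median of the 18 markers was then -0.11, as the covariate is built from them. Lep and Cfd are themselves part of the covariate, so their calls in that fit cannot show a difference apart from adipocyte RNA. In whole muscle, more cells of a type and more RNA per cell cannot be told apart.

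Musk and Pak1 were the other called genes with lower values in HFD-post. Musk (chromosome 4, 58285729 to 58377848), the receptor kinase that gathers acetylcholine receptors at the neuromuscular junction, stood at 6.93, 6.66, 6.20 and 7.58 FPKM in CON-post and at 4.59, 4.17, 4.98 and 3.16 FPKM in HFD-post (log2 difference -0.65 ± 0.12, SE, adjusted p = 0.0422). It was called in 6 of 30 alternatives. Of 19 junction genes tested 12 were lower (median -0.03, from -0.07 to 0.01 over the alternatives), and Musk was the only one called. Pak1 (chromosome 7, 97788541 to 97912381), a kinase that Rac switches on, stood at 6.57, 7.14, 7.21 and 6.999 FPKM in CON-post and at 3.30, 4.36, 4.35 and 4.77 FPKM in HFD-post (-0.68 ± 0.12, SE, adjusted p = 0.0253), and was called in 20 of 30.

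Promoters of the called genes were searched for 6 motifs on both strands, in windows from 250 bases before to 50 bases after the start site (RefSeq, GRCm38.p6), which the table held for 14 of the 17 (all but Decr1, Chrna2 and Ephx2). The consensus PPAR direct repeat was in none of them and in 0.0396% of the 32851 promoters of the table, and the NR4A element AAAGGTCA was in none and in 1.51%. The heat shock element GAANNTTC was found in Ech1 (7.86% of all promoters), the AP-1 element TGANTCA in Retsat (7.81%), and the cAMP response element TGACGTCA (1.79%) and the E-box CACGTG (7.15%) in Pak1, the former at 2 places. No match overlapped another. The promoters with a match are shown, from 5′ to 3′ on the plus strand, with the matches in capitals, at chr7:28825088-28825387 for Ech1, chr6:72598352-72598651 for Retsat and chr7:97788291-97788590 for Pak1. A match is a description of these letters only.
Ech1: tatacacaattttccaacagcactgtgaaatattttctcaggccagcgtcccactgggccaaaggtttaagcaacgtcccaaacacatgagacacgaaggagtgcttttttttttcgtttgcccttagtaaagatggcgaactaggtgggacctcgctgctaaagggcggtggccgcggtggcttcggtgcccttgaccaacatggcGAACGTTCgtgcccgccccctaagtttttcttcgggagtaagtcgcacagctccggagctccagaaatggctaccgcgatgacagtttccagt
Retsat: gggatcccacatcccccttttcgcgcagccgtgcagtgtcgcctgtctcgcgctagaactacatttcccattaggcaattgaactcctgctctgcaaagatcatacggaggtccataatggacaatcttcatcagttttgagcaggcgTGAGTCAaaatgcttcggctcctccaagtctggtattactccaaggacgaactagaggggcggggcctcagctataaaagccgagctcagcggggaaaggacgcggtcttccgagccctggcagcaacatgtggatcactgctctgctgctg
Pak1: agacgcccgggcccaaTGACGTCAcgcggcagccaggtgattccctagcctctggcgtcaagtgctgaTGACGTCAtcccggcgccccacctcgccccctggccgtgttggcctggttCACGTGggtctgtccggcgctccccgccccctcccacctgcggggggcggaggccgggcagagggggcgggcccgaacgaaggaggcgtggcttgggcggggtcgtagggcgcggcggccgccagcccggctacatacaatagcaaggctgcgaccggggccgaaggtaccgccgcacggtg

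The lists of AP-1 factors, heat shock chaperones and Egr, Myc and serum response genes gave no call between the diets 3 h after the run, yet each leaned one way. The exercise differences of these lists are not given. For called genes outside them, the log2 difference with exercise was 0.62 for Musk (limma adjusted p = 0.0126) and 0.38 for Acadl (0.0427) on the control diet. It was 0.82 for Npr3 (0.0224) on the high-fat diet. Those genes were picked for the diet difference, which shares libraries with the exercise contrasts, and no share over all genes is given, so these values are descriptions. All 10 AP-1 factors tested were lower in HFD-post (median -0.25), and 2 had an unadjusted p under 0.05 (3.17% of all genes were lower at that p). Fos, the best known of them, stood at 7.58, 4.60, 11.7 and 2.65 FPKM in CON-post and at 1.51, 3.93, 2.32 and 1.45 FPKM in HFD-post, a log2 difference of -1.25 (adjusted p = 0.241). The groups overlapped, since CON-post replicate 4 was below HFD-post replicate 2. Maff, a small Maf factor, was lower without overlap (2.80 ± 0.520 to 1.82 ± 0.369 FPKM, adjusted p = 0.669). Without 1 library at a time, between 8 and 10 of the 10 were lower, and the median was -0.15 without HFD-post replicate 1 and -0.39 without CON-post replicate 4.

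Of 35 heat shock chaperones 25 were lower (median -0.10), 6 of them at an unadjusted p under 0.05 (3.17% of all genes). The median was -0.04 without CON-post replicate 2 or 3, -0.05 leaving out HFD-post replicate 1, -0.17 leaving out HFD-post replicate 2 and -0.15 with the adipocyte covariate. Hspa1b, the inducible chaperone of the HSP70 family, stood at 35.6, 29.3, 45.0 and 11.01 FPKM in CON-post and at 6.71, 29.3, 10.5 and 11.1 FPKM in HFD-post (log2 difference -1.09, adjusted p = 0.681). The diets overlapped through 1 low CON-post and 1 high HFD-post library, and HFD-post replicate 2 was the highest of its group for 26 of the 35 (74.3%, against 34.2% of all genes). Hspa8, the constitutive relative, measured 158 ± 17.2 FPKM in CON-post and 132 ± 6.30 in HFD-post (adjusted p = 0.629). Reads of Hspa1b and its near-identical copy Hspa1a could have been split between them. Among 20 Egr, Myc and serum response genes 15 were lower (median -0.16, and -0.24 with the adipocyte covariate), led by Btg2, an antiproliferative gene (12.4 ± 3.39 to 9.22 ± 1.64 FPKM, adjusted p = 0.738), and Egr1 (5.23 ± 2.20 to 3.03 ± 1.64 FPKM, adjusted p = 0.793).

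Single genes that the text of the study names for the response to exercise on the 2 diets (Cited2, Dusp10, Trp63, Klf5, Egr1, Nr4a3 and Ppargc1a) and Pdk4, from the list of pyruvate dehydrogenase and its kinases, are given as values. The study picked several of these from the same libraries for a response to exercise that differed between the diets, so the change in their diet difference is a description, without a test. The exercise differences share the post-exercise libraries with the diet difference and are given side by side only. Dusp10, a phosphatase of the stress-activated MAP kinases, stood at 17.4, 22.6, 20.9 and 20.9 FPKM in CON-post and at 13.7, 13.1, 13.6 and 11.1 FPKM in HFD-post, against means of 11.2 in CON-pre and 12.03 in HFD-pre. The post-exercise diets did not overlap (log2 difference -0.65, standard error 0.15, adjusted p = 0.148). The log2 difference with exercise was 0.87 on the control diet (adjusted p = 0.00598) and 0.10 on the high-fat diet (adjusted p = 0.846), so the diet difference after exercise minus that at rest, the interaction, was -0.77.

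Cited2, a coregulator that binds CBP and p300, had the same form. It stood at 24.4, 23.0, 29.0 and 17.2 FPKM in CON-post and at 16.2, 15.6, 13.9 and 15.7 FPKM in HFD-post, again without overlap, and at means of 11.2 and 13.9 FPKM in CON-pre and HFD-pre. The diet difference after exercise was -0.57 (adjusted p = 0.355) and the interaction -0.87. Klf5, a Kruppel-like factor, measured 2.77 ± 0.608 FPKM in CON-post and 1.96 ± 0.501 in HFD-post (-0.41, adjusted p = 0.754; interaction -0.83). Trp63, a p53 family member, measured 5.48 ± 1.02 FPKM in CON-post and 3.41 ± 1.52 in HFD-post (-0.67, adjusted p = 0.506), with 1 HFD-post library inside the CON-post range.

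Nr4a3 and Ppargc1a, which rose with exercise on both diets, were not called between the diets afterwards. Nr4a3, an orphan nuclear receptor, stood at 19.0, 8.10, 16.8 and 11.1 FPKM in CON-post and at 9.45, 16.9, 14.2 and 15.5 FPKM in HFD-post (log2 difference 0.07 ± 0.26, SE, adjusted p = 0.997), and its sign turned without CON-post replicate 2 (-0.15). Ppargc1a, which encodes PGC-1 alpha, stood at 35.1, 18.8, 34.8 and 24.6 FPKM in CON-post and at 14.5, 25.1, 26.5 and 23.0 FPKM in HFD-post (-0.33 ± 0.19, SE, adjusted p = 0.907), and its difference was between -0.51 without CON-post replicate 2 and -0.14 without HFD-post replicate 1. Both groups overlapped. Pdk4, the kinase that turns off pyruvate dehydrogenase, reached 518 ± 36.3 FPKM in CON-post and 433 ± 108 in HFD-post (-0.29, adjusted p = 0.939, and -0.12 without HFD-post replicate 4), from 207 and 316 FPKM at rest (interaction -0.94). The interaction was -0.41 for Trp63, -0.25 for Egr1, 0.93 for Nr4a3 and 0.12 for Ppargc1a, and it was called in none of the 8 genes.

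**Figure D3:**
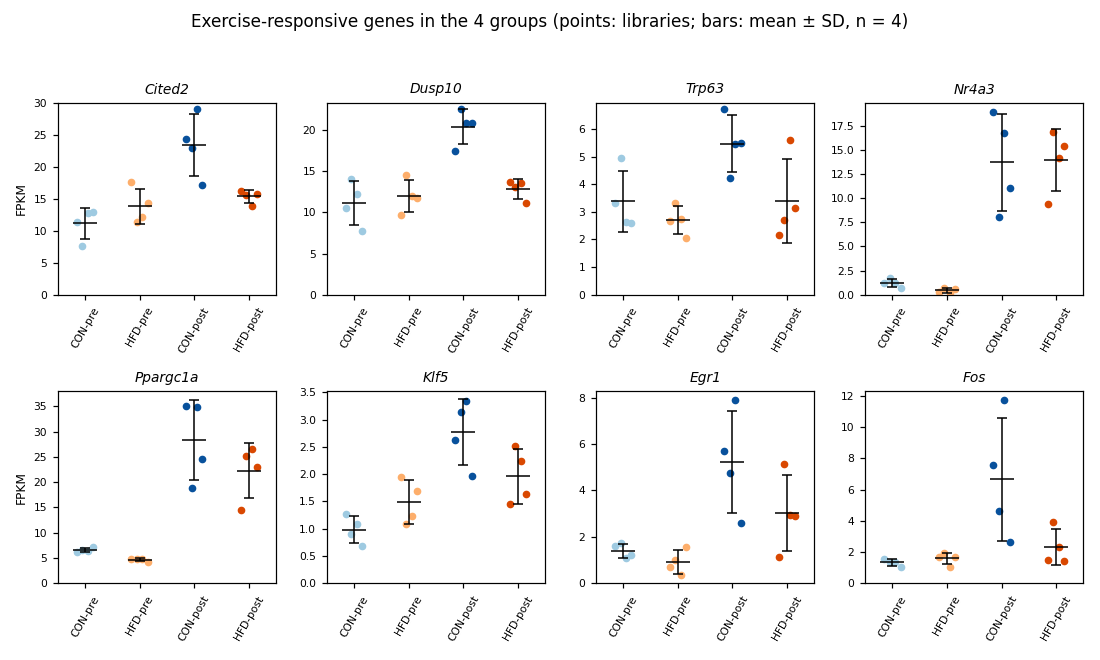
FPKM of 8 genes in the 4 groups, those that the study's text names for exercise and Fos, with 1 point for each library and bars for the mean ± SD (n = 4). HFD-post lies below CON-post without overlap in Cited2 and Dusp10, while the diets overlap after exercise in the other 6, Nr4a3 and Ppargc1a included.

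The diet difference at rest, HFD-pre against CON-pre, comes from the other 8 libraries of the same fit. It gave 39 called genes (0.346%), 27 higher (0.240%) and 12 lower (0.107%). Of the 17 genes called after exercise, 11 were also called at rest, all in the same direction, which is 64.7% of the post-exercise and 28.2% of the resting calls. Dbi, Ephx2, Musk, Npr3, Pak1 and Retsat were called after exercise alone, and all 6 had the same sign at rest. Of the 39 genes called at rest, 38 had the same sign after exercise, and 34 had an unadjusted p under 0.05 there (6.29% of all genes in either direction). Because these 39 were selected for their difference at rest, the sizes at the 2 times are not compared for them. Across all 11256 genes, which are not independent, the 2 differences correlated with a Pearson r of 0.248 and a Spearman rho of 0.269, a description without a test.

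**Figure D4:**
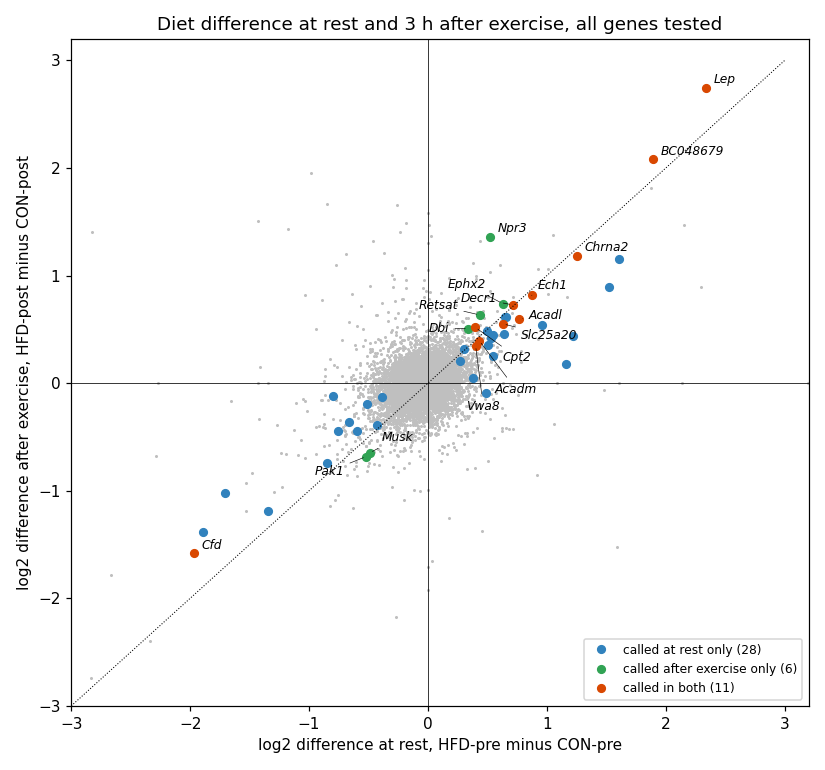
Log2 difference between the diets at rest (horizontal axis) and 3 h after exercise (vertical axis) for the genes tested, 9 of them beyond the axes, with called genes coloured and the 17 post-exercise calls named. The 17 genes called after exercise, the 11 called at both times among them, lie on the same side of 0 on both axes. The dotted line marks equal differences.

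Fatty acid oxidation genes had a median diet difference of 0.34 at rest, where 9 of the 21 were called, all higher (0.240% of all genes), and of 0.36 after exercise. Fatty acid synthesis stood at a median of -0.35 at rest and 0.06 after exercise. At rest 3 of its 19 genes were called, all lower (0.107% of all genes), and after exercise none was. AP-1 factors stood at a median of 0.04 at rest and -0.25 after exercise. The interaction of diet and exercise, which tests a change in the diet difference gene by gene, was called in 0 of 11256 genes in limma (0%), with a smallest adjusted p of 0.926, and 356 genes (3.16%) had an unadjusted p under 0.05. The diet difference of Npr3 was 0.52 at rest (means of 0.917 and 1.53 FPKM, adjusted p = 0.265) and 1.36 after exercise (interaction 0.84). G0s2 gave 0.11 at rest and 0.84 after exercise (interaction 0.73). Both are named for their difference after exercise, so these interactions are descriptions. No difference between the diet differences at rest and after exercise passed the correction over all genes.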

How the data were processed

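RNA was sequenced from quadriceps of 16 mice in 4 groups of 4, 8 of which were compared here. Per the study's methods and the labels, the authors aligned the reads of stranded mRNA libraries with TopHat and estimated expression with Cufflinks, and they deposited FPKM, values already divided by transcript length and sequencing yield, hence no counts. FPKM carry no depth, so the precision of single values is unknown. Of 24487 entries, 27 whose names had become dates were left out (0.0771% of FPKM) and entries of 260 symbols were summed, leaving 23970 symbols. A level of 0 was listed in at least 1 library for 16 genes whose mean exceeded 5 FPKM.

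Log2(FPKM + 0.5) of the 11256 genes averaging 0.5 FPKM or more was fitted with limma 3.58.1 (R 4.3.3) in 1 model of the 4 groups, with a mean-variance trend and no covariates, and p-values were adjusted by Benjamini-Hochberg over all genes. Replicates are separate mice. Other pseudocounts, filters, scalings, variance models, a replicate block, an adipocyte covariate and leaving out each library were tried as alternatives. Lists were described by counts and medians without a set test. The genes named are all called genes up to 12 in each direction, the called members and the 2 members of smallest p of a list, and 7 genes the study's text names for exercise on the 2 diets, and others are marked where they appear. The members and lists were chosen with earlier results of these data known. Positions are from RefSeq GRCm38.p6. The methods name mm9, but of 692 genes with loci in the study's tables all 692 overlapped GRCm38 and 114 overlapped mm9 (GENCODE M1). Figures were drawn in Python 3.11.15, pandas 2.3.3 and matplotlib 3.10.9. In simulated data of 11169 genes with 200 changed, 98.9% of 94 log2 changes of size 1 and 100.0% of 106 of size 2 were called for this comparison, with 16 false calls. The changed genes all had a mean log2 level above 2, and the noise was normal and independent between libraries and genes. The simulation therefore cannot show how often smaller changes, low genes or patterns shared within a library are called rightly.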

Additional observations from a re-analysis of the deposited data

Results flagged for a closer look

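In 12 of 164 groups of 4 libraries (7.3%), the highest or lowest library stood further from the others than Dixon's 95% critical value for 4 samples, taken on the gap over the range, which chance exceeds in about 1 of 20 groups. Among called genes, Npr3 was 0.732 FPKM in CON-post replicate 3 against 0.926 to 0.959 in the other CON-post libraries, and Ephx2 was 26.8 FPKM in HFD-post replicate 1 against 17.8 to 18.5. Of the remaining genes, Hadh, a dehydrogenase of fatty acid oxidation, was 115 FPKM in HFD-post replicate 1 against 79.4 to 84.2. Fabp3 was 101 FPKM in CON-post replicate 3 against 71.4 to 75.2. Fasn was 12.1 FPKM in CON-post replicate 1 against 3.91 to 5.15, and Pex11a was 5.26 FPKM there against 7.11 to 7.35. Acat1, a mitochondrial thiolase, was 39.7 FPKM in CON-post replicate 2 against 47.0 to 48.5. HFD-post replicate 2 was high for Btg2 (11.7 FPKM against 8.25 to 8.63), for Cyp2e1, a cytochrome P450 (20.3 FPKM against 7.95 to 10.03), and for the summed neutrophil markers (176.5 FPKM against 3.27 to 9.63). The summed skin keratinocyte markers were high in CON-post replicate 1 (15.1 FPKM against 0.940 to 2.50) and in HFD-post replicate 3 (40.9 FPKM against 0.480 to 1.31). Leaving out each library named here gave 11 calls for CON-post replicate 1, 8 of them among the 17, then 5 for CON-post replicate 2, all 5 among the 17, and 8 for CON-post replicate 3, 7 of them among the 17. It gave 11 calls for HFD-post replicate 1, 8 of them among the 17 and Ephx2 not among them, then 13 for HFD-post replicate 2, 10 of them among the 17, and 16 for HFD-post replicate 3, 14 of them among the 17.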

How the results depend on the processing

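The 17 calls (14 higher, 3 lower) became 2 (2 and 0) when only the 2 groups compared were fitted, 30 (23 and 7) at an adjusted p under 0.1 and 708 (351 and 357) at an unadjusted p under 0.05. The 3 lower calls became 0 without the filter, and the higher calls became 8 with the adipocyte score as a covariate. Over the fits without 1 library the count was 5 to 16 (5 to 14 higher, 0 to 4 lower). The other settings gave between 12 and 19 calls. At rest, the 39 calls became 63 with array weights, 62 at an adjusted p under 0.1, 929 at an unadjusted p under 0.05, and 21 to 44 without 1 library. The interaction gave 0 calls in limma, 356 at an unadjusted p under 0.05, and 0 to 1 without 1 library. At rest, the fit of the 2 groups alone gave 32 calls. The cause of these shifts was not tested. Of single genes, Nr4a3 ranged from -0.149 to 0.244 without 1 library and turned to -0.149 without CON-post replicate 2, -0.005 without CON-post replicate 4 and -0.029 without HFD-post replicate 2, and Adipoq to -0.212 with the adipocyte covariate. No other named gene changed sign in the alternatives run, and no scaling moved the median of all genes by over 0.1.

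No source used here says that a replicate number marks a shared litter, batch or day, so the numbers were not used to pair samples. Deviations of same-numbered CON-post and HFD-post libraries correlated at 0.117, 0.204, -0.009 and 0.077: replicates 1, 2 and 4 of each group correlated best with their own number and replicate 3 did not, a hint from the data and not the design. A fit with the replicate block gave 17 calls, 12 of them among the 17. FPKM without counts leave the counting error of low genes such as Npr3, Chrna2 and Lep unknown.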

Other observations

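Several lists outside lipid and exercise biology leaned one way without a call. Of 25 glycolysis genes, 20 were lower in HFD-post (median log2 difference -0.09, or -0.05 leaving out CON-post replicate 2 and -0.06 leaving out HFD-post replicate 1), against 5484 of all 11256 genes. Pfkfb3, which makes the activator of phosphofructokinase, stood at 36.5, 82.1, 73.7 and 27.6 FPKM in CON-post and at 21.0, 25.4, 25.8 and 21.1 FPKM in HFD-post (log2 difference -1.08, limma adjusted p = 0.324). Its CON-post libraries fell into a high and a low pair, both above HFD-post. Of 15 slow-fibre sarcomere genes 13 were lower (median -0.17, against -0.47 at rest), but the median depended on single libraries and was -0.06 when CON-post replicate 1 was left out, -0.45 for CON-post replicate 2, -0.42 for HFD-post replicate 1 and 0.05 for HFD-post replicate 4. With the adipocyte covariate 13 of the 15 were higher (median 0.20). HFD-post replicate 1 was the highest of its group for 14 of the 15 (93.3%, against 14.7% of all genes). Of 16 fast-fibre sarcomere genes 14 were lower (median -0.07, from -0.13 to 0.00 over the alternatives). Of 13 genes of the IGF system 11 were lower (median -0.19, and -0.10 without HFD-post replicate 1). Macrophage markers were lower in 13 of 16 cases (median -0.25; -0.45 without CON-post replicate 1, -0.02 without CON-post replicate 2, -0.07 without HFD-post replicate 1 and -0.53 with the adipocyte covariate), with sums of 98.4 to 277 FPKM in CON-post and 90.3 to 194 in HFD-post. Tendon markers were higher in 8 of 8 (median 0.33; 0.21 without CON-post replicate 1, 0.52 without CON-post replicate 3 and 0.10 without CON-post replicate 4), with sums of 98.2 to 197 and 130 to 217 FPKM, which overlap. All 7 neutrophil markers tested were higher (median 0.61), with sums of 2.96 to 20.9 FPKM in CON-post and 3.27 to 176.5 in HFD-post, and 2 of 7 were higher once HFD-post replicate 2 was left out (median -0.12). All 7 erythroid and blood markers tested were higher as well (median 0.34), with sums of 337 to 484 and 316 to 908.9 FPKM, and 4 of 7 were once HFD-post replicate 2 was left out (median 0.05). Of 9 smooth muscle and pericyte markers 8 were higher (median 0.10, from 0.01 to 0.20 over the alternatives). Il1r1, the interleukin-1 receptor, stood at 2.12, 2.72, 2.76 and 2.30 FPKM in CON-post and at 1.46, 1.90, 1.39 and 1.92 FPKM in HFD-post, without overlap (-0.46, adjusted p = 0.190).

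Genes outside the fixed lists were also looked at, after their values were seen. Plbd1, a lysosomal phospholipase-like gene, was the first past the threshold, at 7.90, 9.05, 9.59 and 10.1 FPKM in CON-post and 17.3, 12.8, 14.5 and 15.2 FPKM in HFD-post (0.67, limma adjusted p = 0.0626). Cyp2f2, a cytochrome P450, was lower in HFD-post, at 0.738, 0.608, 0.377 and 1.03 FPKM against 1.24, 2.23, 2.07 and 3.55 FPKM in CON-post (-1.19, adjusted p = 0.0626), and passed the threshold in 6 of 30 alternatives.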
